A study of Mus musculus with 10 samples.

Results

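Transcripts of 7 secreted factors that recruit or sustain neutrophils, monocytes and macrophages were followed in mouse embryonic fibroblasts (MEFs) treated with interferon-beta (IFN-β). These were the chemokine genes Cxcl1, Cxcl5, Ccl2, Ccl7 and Cxcl12, the cytokine gene Il6 and the growth factor gene Csf1. They were taken by symbol from a table of 23370 gene symbols. Where a symbol had several RefSeq transcripts, the one with the highest mean RPKM (reads per kilobase of transcript, corrected for library depth) was used. All 7 were among the 12168 genes kept for testing, which reached 1 RPKM in 2 or more libraries.

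The 10 libraries were total RNA from C57BL/6 MEFs, fibroblasts grown out of embryos, and all carried the same knock-in, in which a cDNA for the histone variant H3.3 with an HA tag took the place of the H3f3b gene. The pretreated arm had met interferon before the time course and the naive arm had not, and each was sampled at 0, 1, 2, 4 and 6 h, read here as hours after IFN-β at 100 U per ml. There was 1 library per arm and time, and hence no replicate. The sources used here do not give the dose or length of the pretreatment, whether it was washed out, or how many embryos the cultures came from. No library is labelled as left without IFN-β at 1 to 6 h, so the effect of IFN-β and that of time in culture cannot be told apart.

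Chemokines are small proteins that guide leukocytes along a concentration gradient. Cxcl1 and Cxcl5 bind the receptor Cxcr2 and draw neutrophils, whereas Ccl2 and Ccl7 bind Ccr2 and draw monocytes out of the marrow and into tissue. Cxcl12 is made steadily by stromal cells and holds Cxcr4-bearing cells in their niches, and Csf1 keeps macrophages alive through Csf1r. Il6 acts through Il6ra and the shared chain Il6st on the transcription factor Stat3. In fibroblasts, Cxcl1, Ccl2, Ccl7 and Il6 are well known as quickly induced, short-lived transcripts under the control of NF-κB and related factors.

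Depth ranged from 83.9 to 268 M counts (M for mega) in the pretreated libraries and from 94.4 to 261 M in the naive ones. By time, the pretreated 4 and 6 h libraries had 241 and 268 M and the naive ones 254 and 261 M. The deepest library of 0, 1 and 2 h had 151 M. Depth thus went with time between these groups, and its part in the changes was not tested. Of 9 fibroblast markers, 8 had a mean of at least 1 RPKM, the exception being Lum at 0.0776 RPKM, and their summed level was 7430 to 9903 RPKM in pretreated and 8857 to 10741 RPKM in naive libraries. The defining leukocyte markers were near 0: the neutrophil markers summed to 0.069 to 0.166 RPKM in pretreated and 0.004 to 0.217 RPKM in naive libraries, and of the macrophage markers in the table only Cd68 and Cd14 had a mean of at least 1 RPKM. In bulk RNA, fewer cells of a type and less RNA per cell cannot be told apart. The pretreated libraries did not form an even series. H19, an imprinted RNA of fetal tissue, stood at 9.39, 43.7, 9.19, 44.4 and 9.78 RPKM from 0 to 6 h in pretreated cells, against 110, 123, 89.5, 53.4 and 55.2 RPKM in naive cells, so that the pretreated 1 and 4 h libraries stood apart from the other 3 of their arm. Estimates without these 2 libraries are given beside each test of the secreted factors followed here. For the other genes named below such estimates are not given. For Lif and Ptgs2 only the loss of the call between the arms is stated. The ribosomal precursor Rn45s stood at 6751, 4916, 2452, 1970 and 1958 RPKM in pretreated cells, against 1749, 2612, 1920, 2109 and 1678 RPKM in naive cells. By that measure the pretreated 0 and 1 h libraries stood apart from all others. The pretreated 0 h library is the baseline of every pretreated change below. The part of either library in the changes below was not tested beyond leaving it out of the fits.

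The chemokines are sorted by the cysteines near the start of the mature protein, and the stretches that hold them are shown because they give the families their names. Each is 33 coding bases from GENCODE M21 on GRCm38, 5′ to 3′. Capitals mark the codons of the first 2 cysteines and, in the CXC genes, the 3 codons before them.
Cxcl1: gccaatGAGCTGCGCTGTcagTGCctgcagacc
Cxcl5: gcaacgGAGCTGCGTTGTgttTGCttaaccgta
Cxcl12: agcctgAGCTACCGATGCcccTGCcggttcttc
Ccl2: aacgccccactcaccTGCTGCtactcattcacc
Ccl7: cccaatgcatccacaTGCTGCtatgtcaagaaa
In Cxcl1 and Cxcl5 the capitals read glutamate, leucine and arginine before the first cysteine, the ELR motif of chemokines that bind Cxcr2. Cxcl12 has serine, tyrosine and arginine there, and so lacks that motif. In all 3 of these genes another residue separates the cysteines, whereas in Ccl2 and Ccl7 the 2 cysteine codons are adjacent.

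On mm10, Ccl2 (chr11:82035577-82037452) and Ccl7 (chr11:82045712-82047523) lie on the plus strand of chromosome 11, 8.26 kb apart, with 3 exons each. Cxcl5 (chr5:90759299-90761625) and Cxcl1 (chr5:90891245-90893115) lie on the plus strand of chromosome 5, 130 kb apart, with 4 exons each. Il6 (chr5:30013161-30019968, plus strand, 5 exons) lies elsewhere on that chromosome, Cxcl12 (chr6:117168535-117175069, plus strand, 3 exons in the transcript used) on chromosome 6 and Csf1 (chr3:107745595-107760469, minus strand, 9 exons) on chromosome 3.

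The monocyte chemokine transcripts were abundant, and in both arms they stood higher at 2, 4 and 6 h than at 0 h. Ccl2 stood at 285, 315, 528, 818 and 932 RPKM at 0, 1, 2, 4 and 6 h in pretreated cells, against 95.1, 678, 409, 724 and 606 RPKM in naive cells. The naive course was thus near its top after 1 h and dipped at 2 h, whereas the pretreated course started higher, was little different at 1 h and was highest at 6 h. Ccl7, the neighbouring gene and a ligand of the same receptor, stood at 97.1, 196, 408, 367 and 346 RPKM in pretreated cells, against 52.8, 314, 324, 326 and 296 RPKM in naive cells. Naive Ccl7 reached its plateau by 1 h and pretreated Ccl7 by 2 h. In RPKM, Ccl2 was 2.93, 1.61, 1.29, 2.23 and 2.70 times Ccl7 in pretreated cells, against 1.80, 2.16, 1.26, 2.22 and 2.04 times in naive cells, so Ccl2 was the more abundant of the pair in every library.

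**Figure D1:**
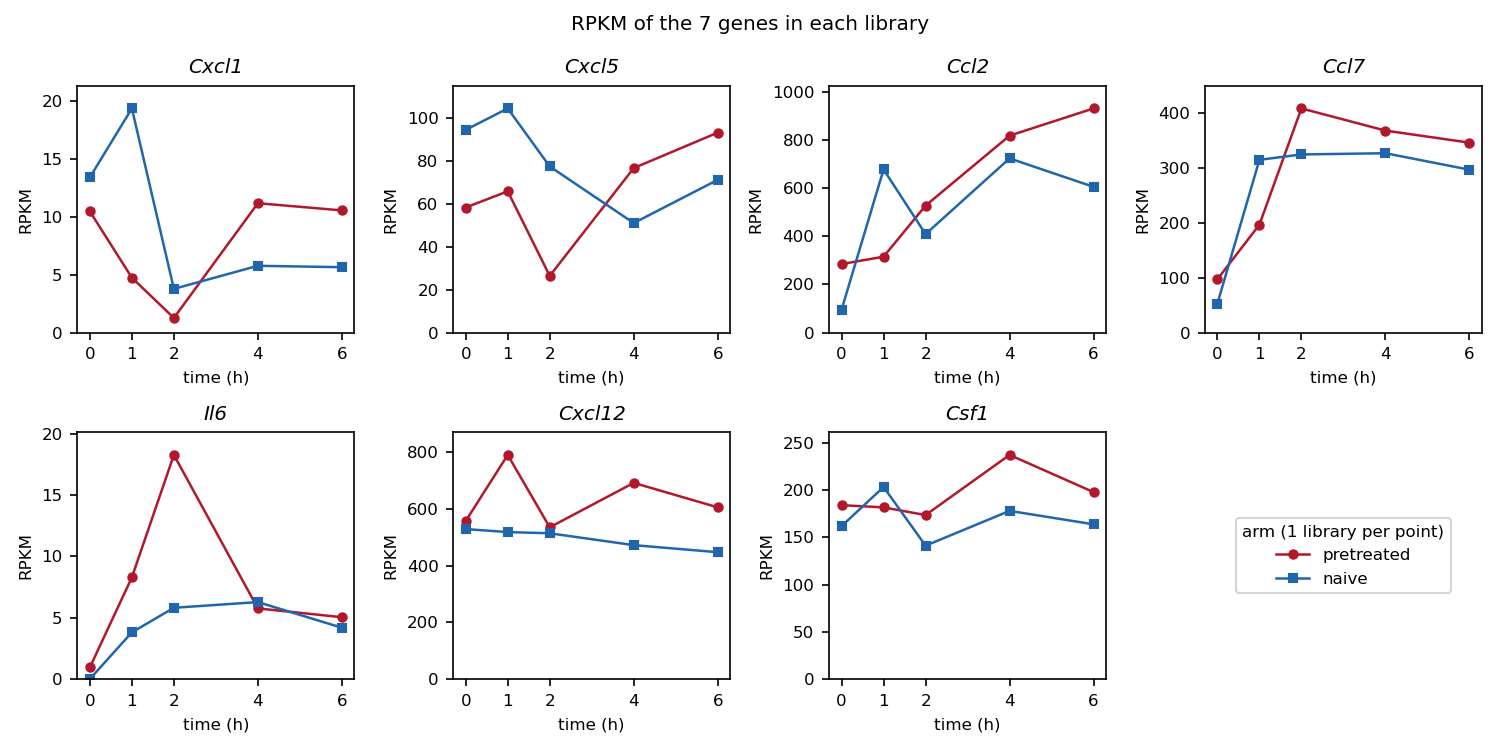
RPKM of each gene (vertical axis, own scale per panel) against time in hours, with 1 library per point, pretreated cells in red circles and naive cells in blue squares. Ccl2, Ccl7 and Il6 are higher at 2, 4 and 6 h than at 0 h in both arms, while Cxcl1 and Cxcl5 are lower in pretreated than in naive cells up to 2 h and higher at 4 and 6 h.

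Il6 was almost absent from naive cells before stimulation. It stood at 0.956, 8.30, 18.3, 5.76 and 5.05 RPKM from 0 to 6 h in pretreated cells, against 0.010, 3.81, 5.82, 6.28 and 4.19 RPKM in naive cells. Behind these values lay 133, 1311, 1657, 1505 and 1464 counts in pretreated and 1, 622, 685, 1726 and 1183 counts in naive libraries. The pretreated course peaked at 2 h and was lower again at 4 h, where the arms were close, at 5.76 RPKM in pretreated and 6.28 RPKM in naive cells. At 0 h the 133 counts of the pretreated library (exact Poisson 95% interval 111 to 158) stood against 1 count in the naive library (0.0253 to 5.57), a depth-scaled ratio of 97.4 with an exact 95% interval of 17.2 to 3877. From 0 to 1 h the ratio was 8.60 (7.19 to 10.4) in pretreated cells and 391 (69.9 to 15466) in naive cells. From 0 to 2 h it was 19.8 (16.6 to 23.8) in pretreated cells and 603 (108 to 23841) in naive cells. These intervals cover counting error only, and the folds of the naive arm all rest on that 1 count.

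On the log2(RPKM + 1) scale, with 2-fold taken as apart and no test possible between single libraries, these 3 genes made up every member that was at least 2-fold above its own 0 h library. At 1 h they were Ccl7 and Il6 in pretreated cells (2 of 7, where 1.31% of all genes tested were 2-fold higher) and all 3 in naive cells (3 of 7, against 2.02% of all genes). Pretreated Ccl7 lay only just past the limit there, at 1.01. At 2 h the pretreated cells again had Ccl7 and Il6 (3.6% of all genes), with Ccl2 at 0.89, and the naive cells all 3 (3.95%). At 4 h all 3 were apart in both arms, where 4.19% of all genes in pretreated and 5.71% in naive cells were, and so at 6 h, where 3.15% and 6.2% were. The pseudocount of 1 makes the change of a low gene such as Il6 too small.

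**Figure D2:**
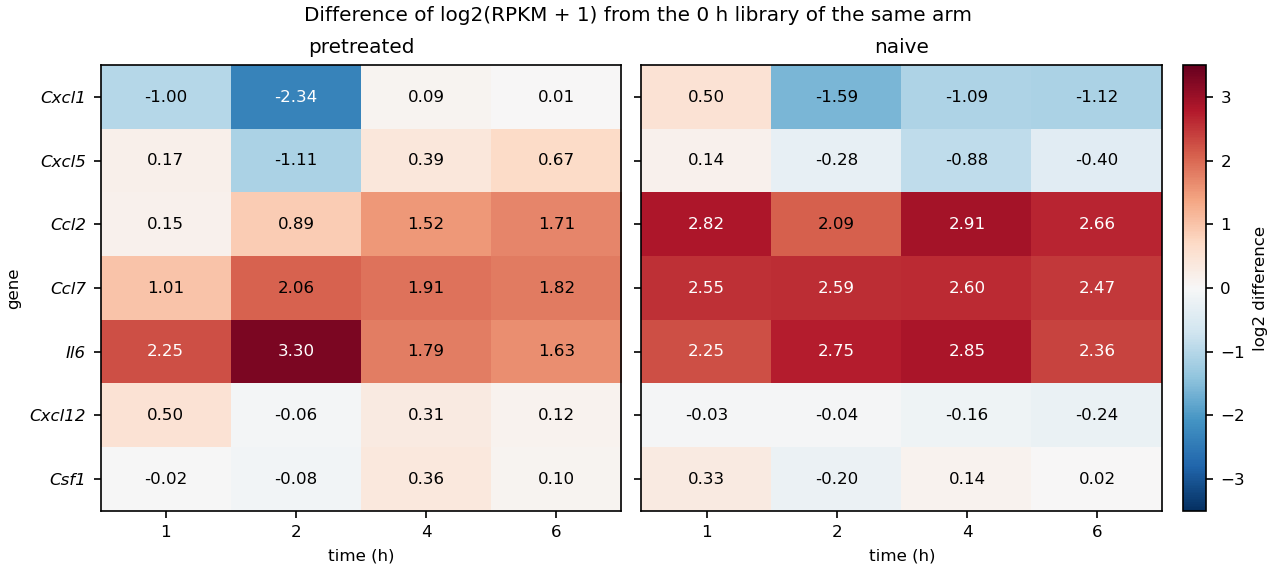
Each cell gives the difference in log2(RPKM + 1) between a library and the 0 h library of its own arm, pretreated on the left and naive on the right, by gene and hour. Ccl2 shows the contrast of the arms at 1 h, with 0.15 in pretreated and 2.82 in naive cells.

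Stimulation was tested as the mean of 2, 4 and 6 h against 0 h over both arms, with edgeR's quasi-likelihood test in a model of time and arm. With no repeated cultures, its p-values rest on the spread among time points and arms alone. The log2 rise was 1.91 for Ccl2 (SE 0.48, edgeR adjusted p = 0.0199), 2.28 for Ccl7 (SE 0.30, edgeR adjusted p = 0.00500) and 4.17 for Il6 (SE 0.87, edgeR adjusted p = 0.0115). These 3 of 7 stood where 19.9% of all genes tested rose, and none of the 7 fell, where 20.0% of all genes did. Il6 was below 1 RPKM in both 0 h libraries, at 0.956 RPKM in pretreated and 0.010 RPKM in naive cells. It thus passed the filter only through later libraries, and its place in this count is a description only. All 3 calls were lost without the naive 0 h library, a fit with 1 library at 0 h. Nearly all calls over the whole table were lost there too. The estimates were then 1.26 for Ccl2, 1.89 for Ccl7 and 3.25 for Il6. Without the pretreated 0 h library they were 2.84, 2.77 and 9.06, all called. Without the pretreated 1 and 4 h libraries they were 2.11, 2.36 and 4.59, all called. The remaining members had estimates of -1.0 for Cxcl1 (SE 0.55, edgeR adjusted p = 0.181), -0.14 for Cxcl5, 0.05 for Cxcl12 and 0.13 for Csf1. Without the pretreated 1 and 4 h libraries these were -1.26, -0.37, -0.01 and 0.09, none called.

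Between 0 and 1 h alone, over both arms, edgeR called no member and no gene (0.0% of those tested). Ccl2 had an estimate of 1.53 (SE 0.54, edgeR adjusted p = 0.394), Ccl7 of 1.81 (SE 0.33, edgeR adjusted p = 0.253) and Il6 of 3.81 (SE 0.91, edgeR adjusted p = 0.334). These 3 were the members with an unadjusted p below 0.05, as were 1383 of all genes tested. DESeq2 called 1 member, Ccl7 (1.82, adjusted p = 6.91e-08), among 236 of the 12168 genes, whereas limma called 5 genes and no member. These estimates moved widely when 1 library was left out, though none was called. Ccl2 had 0.52 without the naive 1 h library, 0.81 without the naive 0 h library, 2.31 without the pretreated 1 h library and 2.39 without the pretreated 0 h library. Il6 had 2.92 without the naive 0 h library and 8.73 without the pretreated 0 h library. Cxcl1, at -0.08 with all libraries, had -1.36 without the naive 1 h library and 0.72 without the pretreated 1 h library. Without the pretreated 1 and 4 h libraries together the estimates were 2.42 for Ccl2, 2.36 for Ccl7, 4.20 for Il6, 0.57 for Cxcl1, 0.18 for Cxcl5, 0.03 for Cxcl12 and 0.36 for Csf1, none called.

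The neutrophil chemokine transcripts took another course. Cxcl1 stood at 10.5, 4.74, 1.26, 11.2 and 10.6 RPKM from 0 to 6 h in pretreated cells, against 13.4, 19.4, 3.77, 5.77 and 5.65 RPKM in naive cells. Both arms were lowest at 2 h. The pretreated course then came back to its 0 h level, whereas the naive course, after a high at 1 h, stayed below its own. Cxcl5 stood at 58.2, 65.7, 26.4, 76.6 and 93.0 RPKM in pretreated cells, against 94.3, 104, 77.3, 51.0 and 71.1 RPKM in naive cells. Its low point was at 2 h in pretreated and at 4 h in naive cells. Pretreated cells had less of both transcripts at 0, 1 and 2 h and more of them at 4 and 6 h, an order held by 711 of all genes tested (5.84%).

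Against its own 0 h library, Cxcl1 differed on the log2(RPKM + 1) scale by -1.0, -2.34, 0.09 and 0.01 at 1, 2, 4 and 6 h in pretreated cells, against 0.50, -1.59, -1.09 and -1.12 in naive cells. At 2 h, Cxcl1 and Cxcl5 were 2-fold lower in pretreated cells (2 of 7, where 1.11% of all genes were) and Cxcl1 in naive cells (1 of 7, against 1.27%). At 4 and 6 h the naive arm again had Cxcl1 2-fold lower (3.19% and 3.7% of all genes), and the pretreated arm had no member so (1.92% and 0.616%). At 1 h no member was 2-fold lower in either arm (0.255% of all genes in pretreated, 0.181% in naive cells), Cxcl1 in pretreated cells lying just inside the limit at this pseudocount and beyond it, at -1.13, with a pseudocount of 0.1. Cxcl5 was 5.56, 13.9, 20.9, 6.85 and 8.82 times Cxcl1 in RPKM in pretreated cells, against 7.04, 5.39, 20.5, 8.84 and 12.6 times in naive cells.

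Cxcl12 and Csf1 were steadily abundant. Cxcl12 stood at 557, 790.3, 535, 692 and 605 RPKM in pretreated cells, against 529, 518, 514, 472 and 447 RPKM in naive cells. It was higher in pretreated cells at every time, as were 1314 of all genes tested (10.8%), with log2 differences of 0.08, 0.61, 0.06, 0.55 and 0.44. The 2 highest values came from the pretreated 1 and 4 h libraries, in which H19 also stood apart. Without these 2 libraries the edgeR estimate between the arms was 0.17, against 0.33 with all libraries. What set these libraries apart was not tested. This is the transcript of the alpha isoform. The table has 2 more rows for the gene, which share reads with it, and the one of lowest RPKM gave a difference of -0.02 at 0 h. Csf1 stood at 184, 182, 174, 237 and 198 RPKM in pretreated cells, against 162, 203, 141, 178 and 164 RPKM in naive cells, so that it was higher in pretreated cells at 4 of 5 times. Over all 10 libraries the log2(RPKM + 1) of Cxcl12 spanned 0.82 and that of Csf1 0.74.

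At each time the arms were set side by side, 1 library against 1. At 0 h, Ccl2 was 2-fold higher in pretreated cells, by 1.57 on the log2(RPKM + 1) scale (1 of 7, where 2.56% of all genes were higher and 0.838% lower). Il6, at 0.95, and Ccl7, at 0.87, lay just short of the limit, and with a pseudocount of 0.1 Il6 was past it, at 3.26. At 1 h the order of Ccl2 was turned round, at -1.10, and Cxcl1 lay at -1.83, which made 2 of 7 lower and 0 higher (0.814% and 1.55% of all genes). Il6 lay just short of the limit there too, at 0.95, and past it, at 1.1, with a pseudocount of 0.1. At 2 h, Cxcl1 at -1.08 and Cxcl5 at -1.52 were lower and Il6 at 1.5 was higher, which made 2 of 7 lower and 1 higher (0.953% and 1.55% of all genes). At 4 h no member was 2-fold apart, where 0.238% of all genes were higher and 0.131% lower, nor at 6 h, where 0.156% were higher and 0.214% lower. The widest differences there were those of Cxcl1, at 0.85 and 0.80. The values at 1 and 4 h rest on the pretreated libraries in which H19 stood apart, and the part of this in them was not tested.

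**Figure D3:**
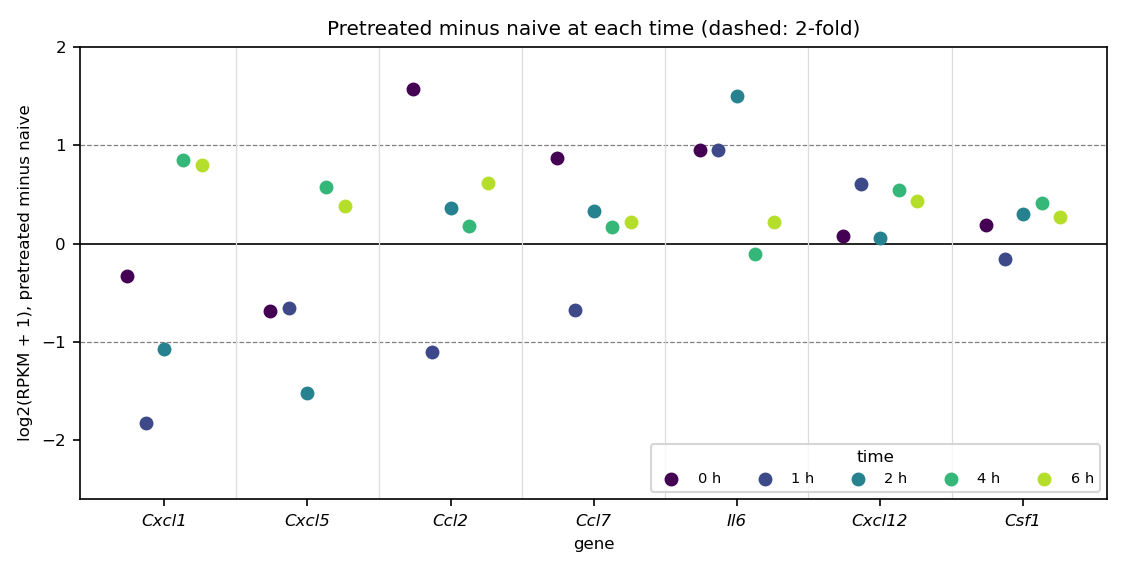
Difference of log2(RPKM + 1), pretreated minus naive (vertical axis), for each gene, with 1 point per time coloured from 0 h (dark) to 6 h (yellow) and dashed lines at 2-fold. Points beyond the lines belong to 0, 1 and 2 h, such as Ccl2 at 1.57 and -1.10, and every 4 and 6 h point lies between the lines.

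Over the 5 times together, edgeR called none of the 7 between the arms, where 1.27% of all genes tested were called. Il6 had the largest estimate, 1.08 (SE 0.53, edgeR adjusted p = 0.284), and Cxcl12 the smallest p, at 0.33 (SE 0.10, edgeR adjusted p = 0.126). Cxcl12 was the 1 member with an unadjusted p below 0.05, as were 2660 of the 12168 genes tested. DESeq2 called it (0.33, adjusted p = 0.0196), among 1371 genes, whereas limma called 204 genes and no member. Without the pretreated 1 and 4 h libraries its estimate was 0.17 (edgeR adjusted p = 0.338). Without them the estimate was 1.58 for Il6, 0.83 for Ccl2, 0.46 for Ccl7, 0.23 for Csf1, -0.30 for Cxcl1 and -0.64 for Cxcl5, none of them called. With all libraries Ccl2 had 0.32, Ccl7 0.17, Csf1 0.19, Cxcl1 -0.39 and Cxcl5 -0.40, with edgeR adjusted p-values between 0.301 and 0.671. Leaving out 1 library at a time gave 0.70 to 1.43 for Il6, 0.01 to 0.67 for Ccl2, -0.01 to 0.39 for Ccl7, 0.13 to 0.28 for Csf1, -0.77 to 0.04 for Cxcl1 and -0.65 to -0.12 for Cxcl5. The values nearest 0 came without either 0 h library for Ccl2 and Ccl7, without either 1 h library for Cxcl1 and without either 2 h library for Cxcl5. A single value over 5 times does not describe genes whose difference changes sign along the course, as that of every member but Cxcl12 did.

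The step from 0 h to the later times was compared between the arms by the interaction of arm and stimulation. Il6 had an estimate of -5.81 (SE 1.44, edgeR adjusted p = 0.595), Ccl2 of -1.58 (SE 0.62, edgeR adjusted p = 0.809) and Ccl7 of -0.89 (SE 0.39, edgeR adjusted p = 0.831), a negative value meaning a smaller step in pretreated cells. The 4 other members lay between -0.05 and 0.37. No member was called, nor was any gene (0.0%), with 740 genes at an unadjusted p below 0.05, 2 members among them. DESeq2 called 1 member, Il6 (-5.89, adjusted p = 0.0229), among 133 of the 12168 genes, whereas limma called 15 genes and no member. Without the pretreated 1 and 4 h libraries the estimates were -5.58 for Il6, -1.12 for Ccl2, -0.63 for Ccl7 and between 0.07 and 0.14 for the others, none called. The Il6 value depended on the scale, with 1 count in the naive 0 h library: limma gave -0.31 on log2(RPKM + 1) and -2.54 with a pseudocount of 0.1.

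**Figure D4:**
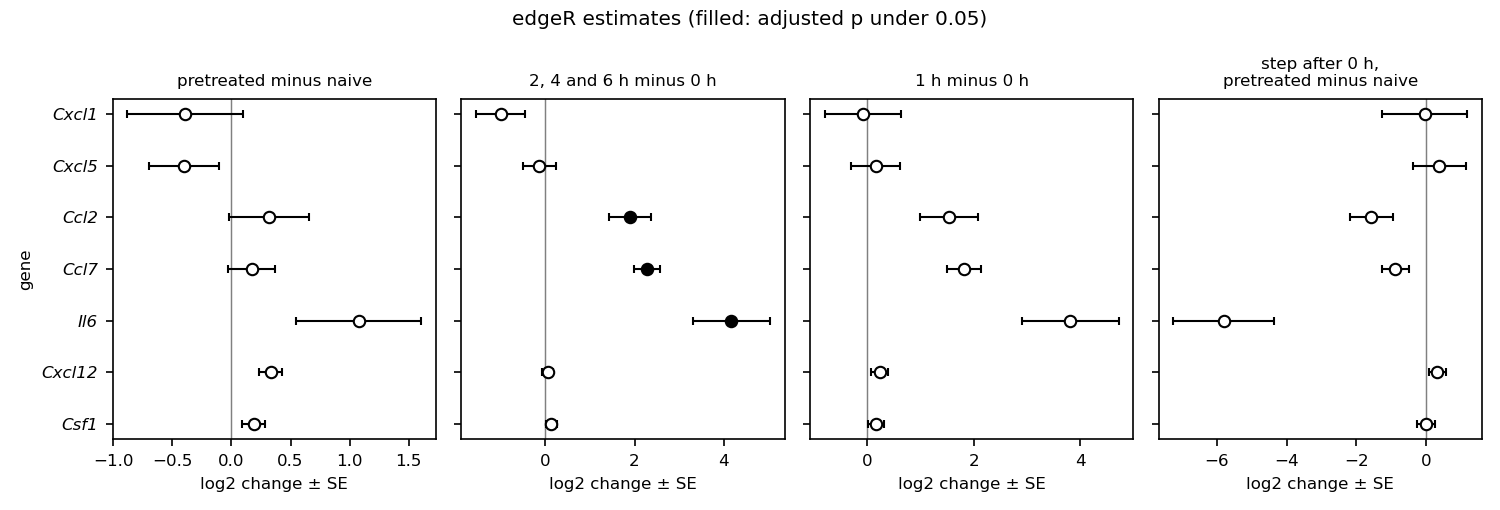
Estimated log2 change with its SE (horizontal axis) for each gene in the 4 edgeR contrasts, from left to right the arms, 2 to 6 h against 0 h, 1 h against 0 h, and the difference of the step after 0 h between the arms. The filled points are the calls, Ccl2, Ccl7 and Il6 in the contrast of 2 to 6 h with 0 h, at 1.91, 2.28 and 4.17.

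By level, in RPKM and so per length, the pretreated 6 h cells had Ccl2 first, followed by Cxcl12, Ccl7, Csf1, Cxcl5, Cxcl1 and Il6, whereas the naive 0 h cells had Cxcl12 first, followed by Csf1, Ccl2, Cxcl5, Ccl7, Cxcl1 and Il6. Over the 10 libraries the ranges of Cxcl12 (447 to 790.3 RPKM) and Csf1 (141 to 237 RPKM) did not overlap, nor did those of Cxcl1 (1.26 to 19.4 RPKM) and Cxcl5 (26.4 to 104 RPKM). Il6 (0.010 to 18.3 RPKM) overlapped Cxcl1, and Ccl2 (95.1 to 932 RPKM) overlapped Cxcl12, Ccl7, Csf1 and Cxcl5. Ccl7 (52.8 to 408 RPKM) overlapped Csf1 and Cxcl5 as well. By mean RPKM, Cxcl12 and Ccl2 stood at percentiles 99.6 and 99.5 of the genes tested, Cxcl1 at 42.5 and Il6 at 31.6.

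Likeness of course was measured, for the 5 members that spanned at least 1 on the log2(RPKM + 1) scale, as the root mean square difference of centred values over the 10 libraries, against 12167 other genes, and it is a description only. Nearest to Ccl2 were Trex1 (0.36), Ccl7 (0.39) and Clec2d (0.47). Nearest to Ccl7 were Atf3 (0.30), Mmp13 (0.31) and Myd88 (0.36), with Ccl2 at rank 9. Il6 was nearest to Dll1 (0.33), Apobec1 (0.40) and A930015D03Rik (0.42), with Ccl7 at rank 21. Cxcl1 was nearest to Mnt (0.38), Ier2 (0.41) and Rasl11a (0.41), with Cxcl5 at rank 23. Cxcl5 was nearest to Gas1 (0.27), Mir1905 (0.28) and Phf23 (0.28), with Cxcl1 only at rank 4246.

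The start regions of Il6 and Cxcl1 are shown because these are the induced cytokine and the neutrophil chemokine whose promoters the RefSeq table holds. Each runs from 250 bases before to 50 after the annotated start on GRCm38.p6, plus strand, 5′ to 3′; for Il6 that start lies upstream of the one in the count table. Capitals mark matches, on either strand, to an NF-κB-type motif, GGG and CC with any 5 bases between them.
Il6, chr5:30012864-30013163: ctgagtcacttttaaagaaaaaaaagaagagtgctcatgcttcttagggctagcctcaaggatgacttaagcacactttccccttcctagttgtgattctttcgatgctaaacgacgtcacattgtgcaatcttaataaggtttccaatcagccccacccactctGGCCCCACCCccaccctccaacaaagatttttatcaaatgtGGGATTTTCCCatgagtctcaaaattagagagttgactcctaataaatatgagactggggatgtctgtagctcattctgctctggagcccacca
Cxcl1, chr5:90890995-90891294: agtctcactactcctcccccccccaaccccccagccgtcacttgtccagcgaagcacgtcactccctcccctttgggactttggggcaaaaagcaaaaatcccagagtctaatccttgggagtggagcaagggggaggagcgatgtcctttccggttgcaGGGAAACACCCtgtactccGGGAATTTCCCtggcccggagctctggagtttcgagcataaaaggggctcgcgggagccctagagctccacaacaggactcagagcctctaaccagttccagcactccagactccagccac
Each has 2 stretches in capitals. A stretch of 11 capitals is a pair of overlapping matches, 1 on each strand, as in GGGATTTTCCC of Il6 and GGGAATTTCCC of Cxcl1. Counted from the annotated start, matches began at -85, -44 and -43 in Il6, and at -90, -89, -71 and -70 in Cxcl1. The motif is short and loose: 50.8% of 32851 promoters of this length held it, and those of Cxcl12 and Csf1 did too. Il6 also held the AP-1 motif TGANTCA at -249, which 7.81% of promoters had, and the C/EBP motif TTNNGNAA at -128, which 40.7% had. Neither the interferon response core, a pair of GAAA with any 2 bases between them (3.44% of promoters), nor the GAS motif TTCNNNGAA (8.30%) was found in the windows of these 4 genes, and no match says only that these letters are not in this window.

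The receptors Cxcr2, Ccr2, Cxcr4 and Csf1r were scarce in the fibroblasts, whereas both chains of the Il6 receptor were present. Mean levels over the 10 libraries were 0.0077 RPKM for Cxcr2, 0.0041 RPKM for Cxcr4 and 0.10 RPKM for Csf1r, and Ccr2 was listed at 0, against 5.73 RPKM for Il6ra and 92.6 RPKM for Il6st. Of 16 receptors of the list in the table, 6 were tested, and 3 rose and 1 fell with stimulation, where 19.9% of all genes rose and 20.0% fell. Osmr (0.92, SE 0.18, edgeR adjusted p = 0.0100) and Lifr (1.18, SE 0.14, edgeR adjusted p = 0.00498), which pair with Il6st for other cytokines of the Il6 family, rose, as did the Cxcl12 scavenger Cxcr7 (0.40, edgeR adjusted p = 0.0301). The Il6-binding chain Il6ra fell by 0.53 (SE 0.12, edgeR adjusted p = 0.0129). The shared chain Il6st was not called, at 67.7 to 83.5 RPKM in pretreated and 78.3 to 147 RPKM in naive libraries.

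Of 5 further CXC chemokine genes (Cxcl2, Cxcl3, Cxcl15 and Ppbp, which have the ELR motif, and Pf4, which lacks it) 2, Ppbp and Cxcl15, were tested and none was called in the 4 contrasts. Ppbp had a mean of 15.0 RPKM and Cxcl15 of 0.734 RPKM, whereas Cxcl2 and Cxcl3 had means of 0.0233 and 0.00700 RPKM. Of 8 other monocyte chemokine genes 4 were tested, and Ccl11 (5.10, SE 0.92, edgeR adjusted p = 0.00798) and Ccl8 (3.62, SE 0.88, edgeR adjusted p = 0.0181) rose with stimulation, 2 of 4 where 19.9% of all genes rose. Both had 0 RPKM in the naive 0 h library, so the sizes of these fitted values depend on the prior count. Both were also below 1 RPKM in the pretreated 0 h library. They thus passed the filter only through later libraries, and the 2 of 4 is a description only. Ccl11, known for drawing eosinophils, stood at 0.524, 1.89, 4.42, 11.9 and 10.8 RPKM in pretreated cells, against 0, 3.54, 7.12, 14.4 and 12.8 RPKM in naive cells. Of the 7 listed Il6 family cytokines, 3 were tested and none was called with stimulation. Lif was called between the arms (0.97, SE 0.17, edgeR adjusted p = 0.0477), at 3.02, 3.12, 3.32, 4.49 and 3.04 RPKM in pretreated cells, against 2.17, 1.98, 1.54, 1.5 and 1.43 RPKM in naive cells. Of all genes tested, 1.27% were called between the arms. Without the pretreated 1 and 4 h libraries no gene was called higher in pretreated cells, so the call of Lif was lost. That call was also lost when the 1 h or the 2 h library of either arm was left out alone.

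Among 9 genes known to be raised by Il6 and Stat3, all tested, 1 (Osmr) rose with stimulation, where 19.9% of all genes did. At 1 h, however, 7 of 9 were 2-fold above the 0 h library in naive cells, where 2.02% of all genes were, and 7 of 9 were 2-fold lower in pretreated than in naive cells, where 0.814% were. This list was drawn up with earlier results of these data known, so these counts are a description only. Socs3, the feedback inhibitor of Il6 signalling, stood at 20.7, 15.9, 9.87, 12.2 and 15.1 RPKM in pretreated cells, against 24.7, 213, 27.4, 13.2 and 14.2 RPKM in naive cells. The naive 1 h library thus stood far above the other 9 for Socs3, and it was also the highest for Cxcl1 and Cxcl5. Its part in the values of these genes at 1 h was not tested.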

How the data were processed

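Total RNA of 10 MEF libraries had been sequenced on an Illumina HiSeq2000, per the labels. Bowtie, TopHat and Cufflinks 1.2.1, and the build mm10, are named in the submitters' processing notes without role or order. The deposited table gives, per the file headers, a raw tag count and an RPKM value per RefSeq transcript and library. In 7630 transcripts the authors' RPKM equalled the count times a library factor and a transcript factor, within 0.000167 on the log2 scale. The sources used here do not give the counting tool, the use of strand or the handling of reads with several alignments.

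Rows without a gene (15 of 30646, 0.0157% to 0.0193% of counts) were left out. For each symbol the transcript of highest mean RPKM was kept (4306 symbols had several), and genes reaching 1 RPKM in 2 or more libraries were tested. Counts were fitted with edgeR 4.0.16 (R 4.3.3, quasi-likelihood, TMM) in a model of time and arm (4 residual degrees of freedom), with an arm by stimulation term for the induction difference (3 residual degrees of freedom). P-values are two-sided, adjusted by Benjamini-Hochberg over 12168 genes, with a threshold of 0.05. Each SE given with an edgeR estimate is the absolute log2 estimate divided by the square root of the quasi-likelihood F statistic. It is thus an approximate value, worked back from the test. DESeq2 1.42.0 and limma 3.58.1 on log2(RPKM + 1) were alternatives. The edgeR fits were also run on simulated counts with the same dispersion for every gene. Those counts do not copy the spread among time points or the libraries that stood apart, so they do not check the p-values given here. Single libraries were compared on log2(RPKM + 1) with a 2-fold limit. Exact Poisson intervals and exact ratio intervals, at 95%, cover counting error only. The members and lists were chosen with earlier results of these data known. Named beside the members are, of each list, genes called in a test or of highest mean RPKM, and some others chosen after their values were seen (Cxcl2, Cxcl3, Cxcr2, Cxcr4, Ccr2, Csf1r, Socs3, H19).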

Additional observations from a re-analysis of the deposited data

How the results depend on the processing

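With stimulation, Ccl2, Ccl7 and Il6 were called under every setting run but 1, which left out the naive 0 h library. Leaving out 1 library at a time gave estimates of 1.26 to 2.84 for Ccl2, 1.89 to 2.77 for Ccl7 and 3.25 to 9.06 for Il6. The counts of genes called over the whole table moved more, from 8 to 4983 for stimulation, 2 to 175 for the arms, 0 to 24 for the first hour and 0 to 0 for the induction difference, for which a 0 h library cannot be left out. Without the filter the counts were 317 for the arms, 5 for the first hour and 28 for the induction difference. With DESeq2 they were 1371, 236 and 133, among them Cxcl12 between the arms (0.33), Ccl7 in the first hour (1.82) and Il6 in the induction difference (-5.89). With limma they were 204 for the arms, 5 for the first hour and 15 for the induction difference. With a pseudocount of 0.1 these were 158, 5 and 23. Without the pretreated 1 and 4 h libraries, a setting chosen after seeing the data, 14 genes were called between the arms, against 154 with all libraries. Of 91 differences between single libraries, 88 stayed on their side of 2-fold with a pseudocount of 0.1 and 91 kept their sign. With the transcript of lowest RPKM for Cxcl12 and Csf1, 26 of 26 stayed on their side and 21 kept their sign. The exceptions were Cxcl12 at -0.02 between the arms at 0 h and at -0.21 and -0.17 at 4 and 6 h from pretreated 0 h, and Csf1 at 0.12 and 0.13 at 1 and 2 h from pretreated 0 h.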

Other observations

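Genes that NF-κB is known to raise and factors of mRNA decay were measured beside the members. Of 15 NF-κB target genes tested, 6 rose and 1 (Rela) fell with stimulation, where 19.9% of all genes tested rose and 20.0% fell. Ptgs2, which makes prostaglandins, rose by 1.0 (SE 0.11, edgeR adjusted p = 0.00498) and was also called between the arms (1.1, SE 0.08, edgeR adjusted p = 0.00594). It stood at 27.9, 31.2, 65.2, 70.1 and 49.1 RPKM from 0 to 6 h in pretreated cells, against 15.3, 15.6, 29.5, 27.4 and 21.4 RPKM in naive cells, higher at 5 of 5 times. Its call between the arms, where 1.27% of all genes were called, was lost without the pretreated 1 and 4 h libraries. The call was also lost when the 1 h or the 2 h library of either arm was left out alone. Tnfaip3, a brake on NF-κB, rose by 1.11 with stimulation (SE 0.20, edgeR adjusted p = 0.00757). Of 9 genes of mRNA decay, 2 rose and 1 fell, shares close to or below those of all genes. Arid5a, known for stabilising Il6 mRNA, rose by 1.34 (SE 0.43, edgeR adjusted p = 0.0442). It stood at 1.14, 3.49, 5.75, 2.33 and 1.82 RPKM in pretreated cells, against 1.54, 16.8, 5.51, 3.08 and 2.42 RPKM in naive cells. Khsrp, which promotes decay of AU-rich mRNAs, fell by 0.76 (SE 0.15, edgeR adjusted p = 0.0102).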
